A study of Rattus norvegicus with 40 samples.

Results

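Hippocampal gene expression was compared between female rats given chow with 250 ppm lead acetate after birth and female rats given control chow, on 4 arrays a group, 8 of the 40 arrays of the study. Arrays were put in groups by their labels alone: sex female, developmental period postnatal and lead level 250 ppm for the exposed group, and female control for its comparison group. The postnatal 250 ppm females had lead in the chow from birth through postnatal day 45 and then control chow until dissection on postnatal day 55. Control females had chow without added lead (0 ppm). Hippocampi were flash frozen, and 100 ng of total RNA a sample was labelled for an Affymetrix rat gene array. For direct comparisons, 4 females given 750 ppm in the same postnatal window were used, together with 4 females whose dams ate 250 ppm lead chow from 10 days before breeding until weaning, with control chow afterwards (perinatal exposure). The postnatal 250 ppm males and the male controls, 4 arrays each, entered the comparison between sexes. The labels name no strain, no litter and no blood lead level, and do not say whether control pups were handled as the perinatal or the postnatal groups were. Since litters are unknown, the p-values below compare only these samples, and pups of 1 litter may be counted as several. The spread behind the p-values is that within the 10 groups of all 40 arrays, not within the 8 arrays alone.

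The hippocampus serves learning and spatial memory. Its granule and pyramidal neurons go on maturing after birth, and so do the oligodendrocytes that wrap axons in myelin. Lead ions can take the place of calcium and zinc at protein sites. They are known to block NMDA-type glutamate receptors, to inhibit Alad and other steps of heme synthesis, and to be bound by metallothioneins. Young oligodendrocytes and their precursors are also known as cells that lead can injure.

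Values are log2 signals made by the authors with RMA, in which 1 unit is a doubling, and differences are postnatal 250 ppm minus control unless another pair is named. The 8 arrays had medians from 6.98 to 7.02 and any pair of them had a correlation of 0.9919 to 0.997 over the probe sets. The median SD within a group was 0.113 in postnatal 250 ppm females and 0.103 in control females (n = 4 each). Eif2s3, an X-linked translation factor subunit, is a check on the sex labels: it read 11.62 to 11.77 on the 16 exposed female arrays of the study and 11.15 to 11.42 on its 16 exposed male arrays. On the postnatal 250 ppm female arrays it read 11.65, 11.67, 11.71 and 11.65, against 11.28, 11.60, 11.30 and 11.76 on the female control arrays. Female control replicates 1 and 3 therefore lay in the range of males, and male control replicate 4, at 11.69, in the range of females. The labels were kept, and the called probe sets, several list medians and several named genes are also given without these 3 arrays. Title numbers ran from 2841 to 2844 in postnatal 250 ppm females, against 1974 to 1977 in control females, with no number in common. The labels do not say what the numbers mean, and number range and exposure cannot be told apart.

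Few probe sets passed the test. The limma fit over all 40 arrays called 5 of 29214 probe sets (0.0171%) at a Benjamini-Hochberg adjusted p under 0.05, of which 3 rose (0.0103%) and 2 fell (0.00685%). Of the 5, 3 carried a gene symbol: Ldaf1 and Rab7b rose, and Fcrl2 fell. At an unadjusted p under 0.05 there were 1063 probe sets (3.64%). Over all probe sets the median difference was -9e-04 and 49.5% were higher in the exposed group. Only 0.288% of probe sets differed by over 0.5 in either direction. Without the 3 arrays that went against their sex labels, 4 probe sets were called, 3 higher and 1 lower, and 2 of them, Ldaf1 and probe set 10711454, were among the 5.

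**Figure D1:**
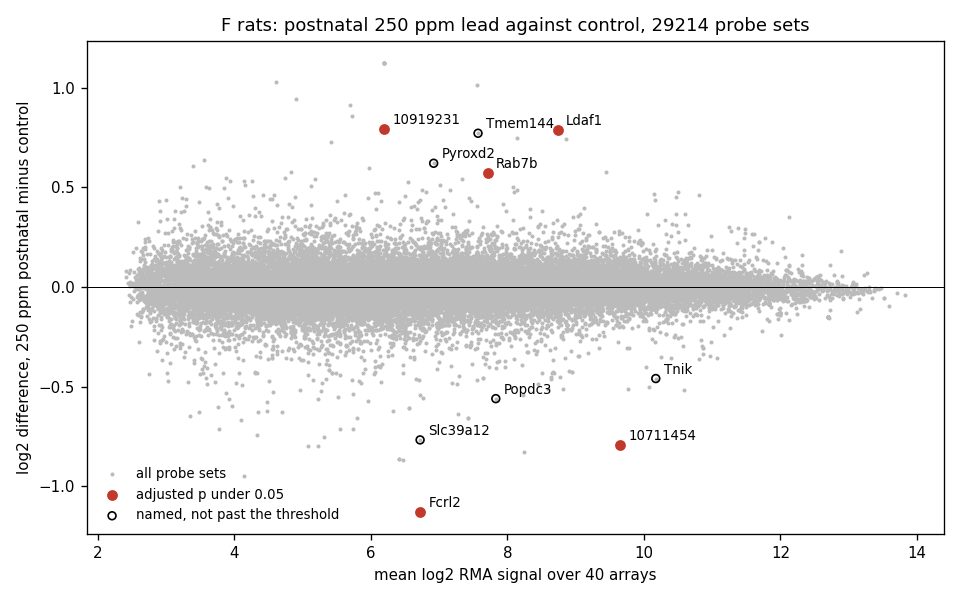
Log2 difference of each of 29214 probe sets, postnatal 250 ppm females minus control females (vertical axis), against its mean log2 signal over 40 arrays (horizontal axis). The 5 called probe sets are in red, and open circles mark named genes that did not pass the threshold, such as Tmem144 at 0.77 and Tnik at -0.46.

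Ldaf1 encodes a protein that works with seipin, the product of Bscl2, where lipid droplets form at the endoplasmic reticulum. It read 8.86, 8.95, 9.19 and 8.74 in postnatal 250 ppm females, against 8.28, 8.0, 8.21 and 8.10 in control females. All 4 exposed arrays lay above all 4 controls. Ldaf1 rose by 0.79 (SE 0.13, 1.73-fold, adjusted p = 0.00625). The means were 8.94 ± 0.19 in the exposed and 8.15 ± 0.12 in the control group (SD, n = 4 each). Without the 3 arrays that went against their sex labels the rise was 0.89 (adjusted p = 0.0290), and without exposed replicate 3, the highest array, it was 0.70 with an adjusted p of 0.0502. The gene stands on chromosome 1, and its promoter is shown because Ldaf1 was the named gene of smallest p. The window is the 300 bases around the annotated transcription start from RefSeq, build GRCr8, chr1:183915669-183915968, plus strand. Capitals mark the match to TGCGCNC, a form of the core of metal response elements, at base 229 of the window. The same text is held on either strand by 15% of 27457 rat promoters of this length.
Ldaf1: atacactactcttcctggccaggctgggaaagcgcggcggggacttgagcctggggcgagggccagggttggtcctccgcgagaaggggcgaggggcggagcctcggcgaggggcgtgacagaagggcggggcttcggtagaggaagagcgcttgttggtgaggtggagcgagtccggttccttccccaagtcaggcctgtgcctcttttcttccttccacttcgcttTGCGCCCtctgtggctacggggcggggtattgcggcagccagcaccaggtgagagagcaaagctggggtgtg
A text match does not show that a factor binds there.

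The other lipid droplet genes differed little. Of 12 genes for lipid droplets and stored lipid, Ldaf1 was the 1 that was called, 8 were higher and 4 lower, and the median difference was 0.06, beside 0.00 (0.0024) over all 14506 genes. Bscl2, the seipin partner of Ldaf1, differed by 0.06, the droplet coat genes Plin2 and Plin3 by -0.01 and 0.12, and the triglyceride synthesis genes Dgat1 and Dgat2 by 0.06 and 0.06. Pnpla2, the first lipase of stored triglyceride, was 8.90, 8.76, 8.89 and 8.85 in exposed females, against 9.04, 9.12, 9.05 and 8.92 in control females. Its groups did not overlap, but the difference of -0.18 (SE 0.09) had an adjusted p of 1. Lyrm1, which lies near Ldaf1 on chromosome 1 in GRCr8, read 9.41, 9.43, 9.38 and 9.41 in exposed females, against 9.17, 9.13, 9.18 and 9.05 in control females. The groups stood clear of each other with a difference of 0.28 (SE 0.07), and the adjusted p was 0.342.

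Rab7b encodes a small GTPase that directs traffic from late endosomes to the trans-Golgi network. It read 7.92, 8.12, 8.06 and 8.05 in postnatal 250 ppm females, against 7.47, 7.15, 7.58 and 7.66 in control females. The exposed arrays lay close together and above every control, of which replicate 2 was the lowest. Rab7b rose by 0.57 (SE 0.10, 1.49-fold, adjusted p = 0.0126). The call was lost without control replicate 2 (adjusted p = 0.0980), without exposed replicates 2, 3 or 4 (0.0822, 0.0502 and 0.0621) and without the 3 arrays that went against their sex labels (0.63, adjusted p = 0.0916). It was also lost in a fit of the compared groups alone (adjusted p = 0.287) and with all 8 control arrays as the control (0.42, adjusted p = 0.0890). Of 14 genes of endosome and lysosome traffic, no other was called, and the median difference was -0.01 (-0.0065). Rab7a, the close relative of Rab7b on the route to lysosomes, differed by 0.02. Tfeb, a transcription factor that drives lysosomal genes, differed by 0.16 (SE 0.07, adjusted p = 1).

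Fcrl2 encodes a member of the Fc receptor-like family of immune cell surface proteins. It read 5.74, 6.13, 6.18 and 6.13 in postnatal 250 ppm females, against 7.07, 7.01, 7.23 and 7.40 in control females. Fcrl2 fell by 1.13 on the log2 scale (SE 0.20, 0.46-fold, adjusted p = 0.0152), the largest absolute difference of any probe set. All 4 exposed arrays were below all 4 controls, with no value between 6.18 and 7.01. The call was lost without control replicates 3 or 4 (adjusted p = 0.0604 and 0.166), without any 1 of the 4 exposed arrays (0.163, 0.0794, 0.0502 and 0.0621 for replicates 1 to 4) and without the 3 arrays that went against their sex labels (-1.16, adjusted p = 0.190). A fit of the female arrays alone did not call Fcrl2 either (adjusted p = 0.267). Fcrl2 kept its call in a fit of the compared groups alone (SE 0.12, adjusted p = 0.0159). It was also called with all 8 control arrays as the control (-1.22, adjusted p = 0.0002976). Among the 6 measured genes of the Fc receptor family none besides Fcrl2 was called, and the next largest difference was 0.19, of the inhibitory receptor Fcgr2b. Microglia carry Fc receptors in the brain, and of 13 microglia markers 10 were higher and 3 lower, with a median of 0.04 and none called.

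Both remaining called probe sets carry no gene symbol in the platform annotation. Probe set 10711454 read 9.09, 9.01, 9.27 and 9.37 in postnatal 250 ppm females, against 9.87, 10.07, 10.07 and 9.90 in control females. It fell by 0.79 on the log2 scale (SE 0.11, 0.58-fold, adjusted p = 0.0002405), with no overlap of the groups, and kept its call without each of the 8 arrays in turn. Probe set 10919231 read 6.29, 6.38, 6.09 and 6.43 in the exposed group, against 5.65, 5.24, 5.39 and 5.73 in the control group. It rose by 0.79 (SE 0.14, adjusted p = 0.0126). Its call was lost without control replicates 2 or 3 (adjusted p = 0.0980 and 0.0604), without exposed replicates 2 or 4 (0.0822 and 0.104) and without the 3 arrays that went against their sex labels (0.81, adjusted p = 0.123). A fit of the compared groups alone did not call it (adjusted p = 0.146). It was too dim to be tested once probe sets in the lowest 40% by mean signal were removed. It kept its call with female arrays only (adjusted p = 0.00132) and with all 8 control arrays as the control (0.76, adjusted p = 0.00129).

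**Figure D2:**
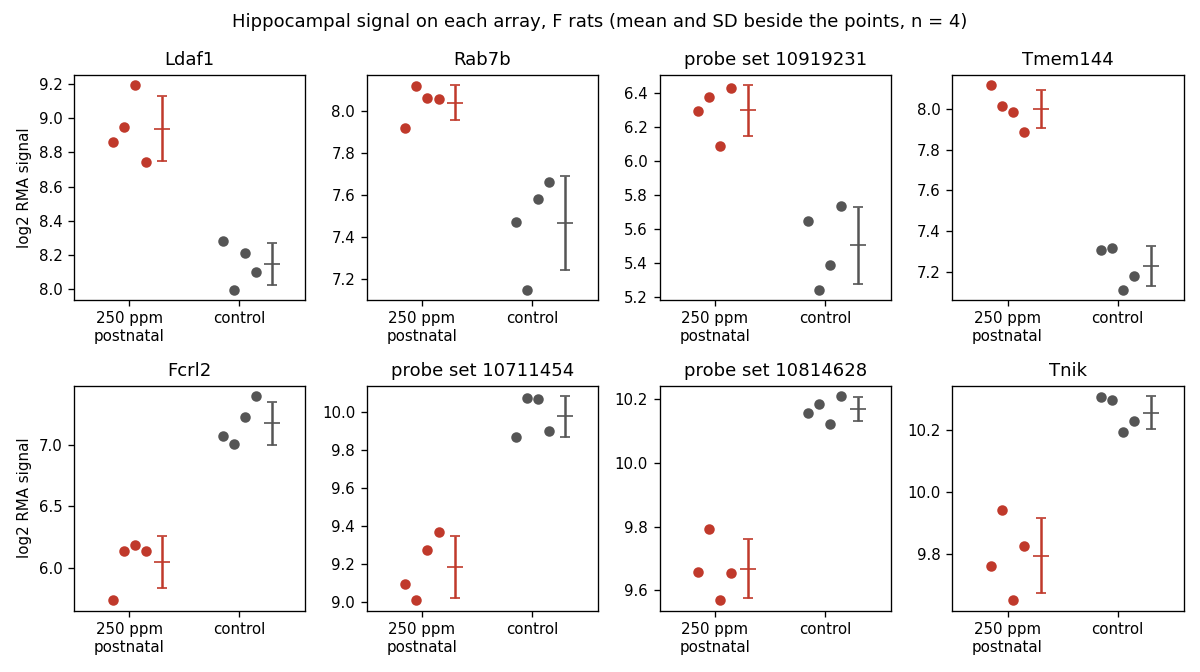
Log2 signal on each array (vertical axes) for the 5 called probe sets and for Tmem144, Tnik and probe set 10814628, which did not pass the threshold, in postnatal 250 ppm females (red, left) and control females (grey, right). Points are arrays, with mean and SD beside them (n = 4). The groups do not overlap in any panel.

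Across the whole study the called probe sets had different orders of groups. Ldaf1 averaged 8.42 to 9.21 in the 8 exposed groups, against 8.15 in control females and 8.14 in control males. Postnatal 250 ppm females stood in the midst of the exposed groups: of the other 36 arrays, 4 were higher than their highest array and 15 lower than their lowest. Probe set 10919231 had the same kind of order, with 6.30 in postnatal 250 ppm females, 5.93 to 6.69 in the other exposed groups, and 5.50 and 5.56 in female and male controls. Rab7b, by contrast, was high in both sexes after the low postnatal dose, at 8.04 in females and 7.99 in males. The remaining exposed groups had 7.50 to 7.83, and female and male controls 7.46 and 7.77. None of the other 36 arrays exceeded the highest postnatal 250 ppm female for Rab7b, and 30 were below the lowest. Probe set 10711454 averaged 9.19 in postnatal 250 ppm females and 9.43 in postnatal 250 ppm males, against 9.49 to 9.81 in the remaining exposed groups and 9.98 and 9.95 in female and male controls. Perinatal 750 ppm females, whose title numbers (1978 to 1981) follow those of the controls, averaged 8.77 for Ldaf1, 6.24 for probe set 10919231, 9.69 for probe set 10711454 and 7.68 for Rab7b. These levels are given as a description, since the comparisons with female controls share the same 4 control arrays.

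Fcrl2 left a gap between arrays. Its values were 5.63 to 6.42 or 6.76 to 7.70, with none in between. All 4 postnatal 250 ppm females, all 4 perinatal 250 ppm males (6.10 ± 0.24, SD) and all 4 postnatal 750 ppm males (5.83 ± 0.13) were on the low side. Perinatal 250 ppm females were divided, with 5.91 and 6.05 against 6.96 and 7.24, and 1 of 4 postnatal 750 ppm females was low, at 6.11. Postnatal 250 ppm males, both 750 ppm perinatal groups and all 8 controls were on the high side. What sets the 2 levels apart was not tested.

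**Figure D3:**
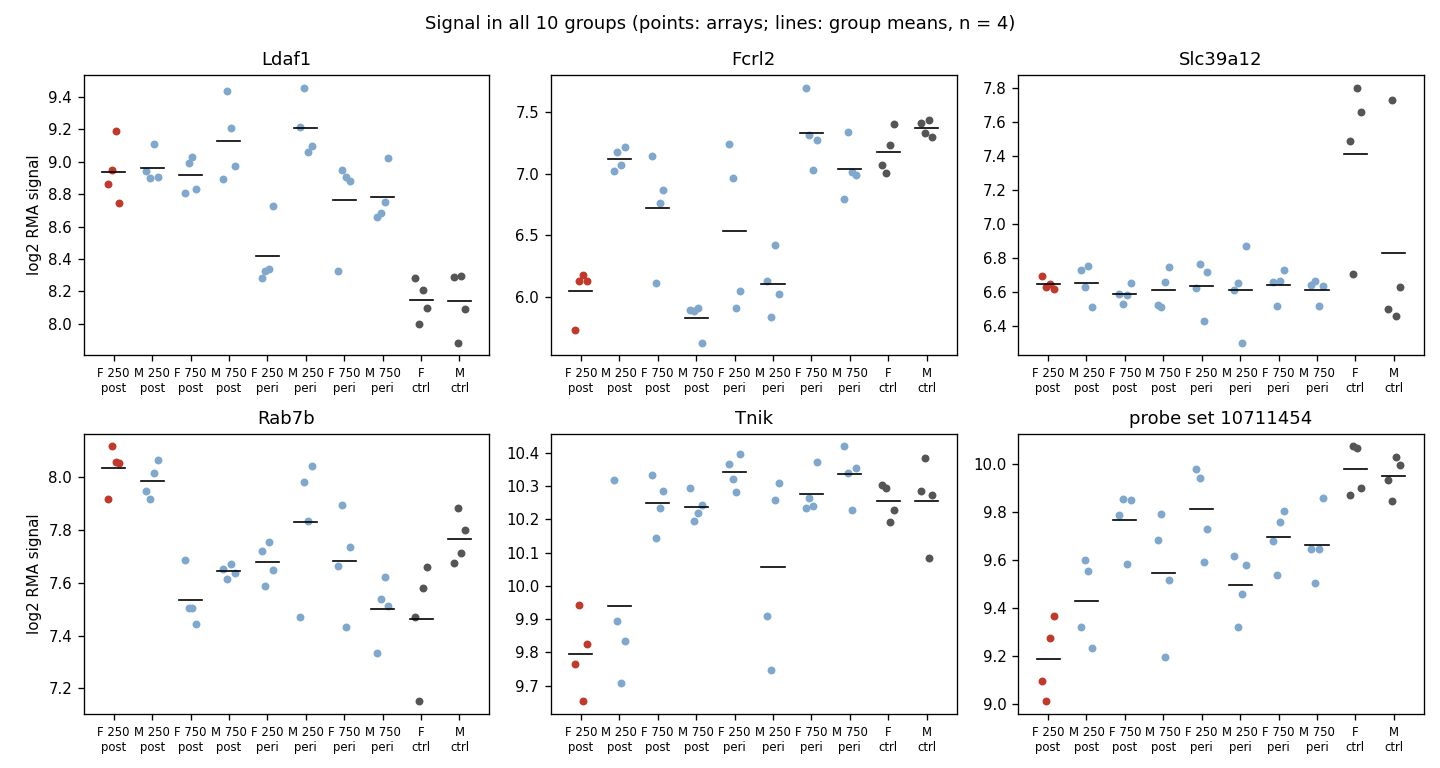
Log2 signal (vertical axes) in all 10 groups (horizontal axes, sex, dose in ppm and window) for Ldaf1, Fcrl2, Slc39a12, Rab7b, Tnik and probe set 10711454. Points are arrays and lines are group means (n = 4), with postnatal 250 ppm females in red, other exposed groups in blue and controls in grey. Fcrl2 and Tnik split some exposed groups, and Slc39a12 is above 7 on control arrays only.

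Further genes had groups that did not overlap but no adjusted p under 0.05. Over all genes, 238 of 14506 (1.64%) had all 4 exposed arrays above all 4 controls, and 124 (0.855%) had them all below. Of the higher ones, Tmem144, a membrane protein of unsettled function, read 8.12, 8.01, 7.98 and 7.89 in postnatal 250 ppm females, against 7.30, 7.32, 7.11 and 7.18 in control females. The difference was 0.77 (SE 0.16, 1.71-fold) and its adjusted p 0.0808. Of the other 36 arrays, 31 were below the lowest exposed array for Tmem144. The difference was 0.75 without the 3 arrays that went against their sex labels (adjusted p = 0.472). Pyroxd2 differed by 0.62 (SE 0.15, adjusted p = 0.291) and Cd48, an adhesion protein of blood cells, by 0.48 (SE 0.12, adjusted p = 0.342). Smaller differences belonged to Tmeff1 (0.36), Nipal4 (0.32), Pogk (0.27), the clock-controlled transcription factor Dbp (0.25), Psat1 of serine synthesis (0.22) and Get1, which helps insert tail-anchored proteins into the endoplasmic reticulum (0.21). Their adjusted p-values were 0.146 to 0.405.

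Among the lower ones, Tnik, a kinase of synapses and of Wnt signalling, read 9.76, 9.94, 9.65 and 9.83 in postnatal 250 ppm females, against 10.30, 10.30, 10.19 and 10.23 in control females. The difference was -0.46 (SE 0.09, 0.73-fold) with an adjusted p of 0.09365. Probe set 10814628, without symbol and singled out after its values were seen, was 9.66, 9.79, 9.57 and 9.65 in the exposed group, against 10.16, 10.18, 10.12 and 10.21 in the control group (-0.50, SE 0.10, adjusted p = 0.0808). Tnik differed by -0.47 (adjusted p = 0.427) and probe set 10814628 by -0.53 (adjusted p = 0.341) without the 3 arrays that went against their sex labels. Both were low on the same arrays elsewhere: postnatal 250 ppm males had 10.32, 9.89, 9.71 and 9.83 for Tnik and 10.13, 9.87, 9.69 and 9.67 for probe set 10814628. Perinatal 250 ppm males were divided, with 9.91 and 9.75 against 10.26 and 10.31 for Tnik, while the remaining 5 exposed groups and both control groups averaged 10.24 to 10.34.

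Popdc3, a member of the Popeye family of cAMP-binding membrane proteins, read 7.43, 7.08, 7.51 and 7.50 in postnatal 250 ppm females, against 7.72, 8.10, 7.79 and 8.16 in control females. The difference was -0.56 (SE 0.13, adjusted p = 0.278), and without the 3 arrays that went against their sex labels it was -0.75 (adjusted p = 0.123). Postnatal 250 ppm males were also low for Popdc3, at 7.43 ± 0.11 (SD, n = 4), and the other 8 groups averaged 7.74 to 8.18. Slc39a12, a zinc importer of the brain, read 6.70, 6.63, 6.65 and 6.61 in exposed females, against 7.49, 6.70, 7.80 and 7.66 in control females (-0.77, SE 0.18, adjusted p = 0.278). Control replicate 2 was at the exposed level. The difference was -0.53 without the 3 arrays that went against their sex labels (adjusted p = 1), and leaving out 1 control gave -1.004 to -0.64, with the most negative value (adjusted p = 0.009991) when the array that resembled the exposed group was the one left out. All 8 exposed groups averaged 6.59 to 6.65 for Slc39a12, and among male controls 1 of 4 arrays was high, at 7.73. The high arrays for Slc39a12 were thus 3 female and 1 male control, and the remaining 4 controls read 6.45 to 6.70.

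Other genes with non-overlapping lower groups were Prokr2, a prokineticin receptor (-0.43), the bicarbonate cotransporter Slc4a7 (-0.42), Papss2, which makes the donor for sulfation (-0.40), Sprn, which encodes the prion-like protein Shadoo (-0.35), Cd93, an endothelial lectin-like protein (-0.33), Htr3a, the serotonin-gated channel subunit of a class of interneurons (-0.33), Tmem215 (-0.30) and the sterol exporter Abcg4 (-0.15). Their adjusted p-values were 0.483 to 0.886, so none of these differences passed the test.

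Genes of myelin and oligodendrocytes were mostly higher in postnatal 250 ppm females, without any that passed the test. Of 15 measured genes of mature myelin (of 19 listed), 14 were higher and 1, Enpp2, was lower. Enpp2 is also a choroid plexus gene. The median difference was 0.20, beside 0.00 (0.0024) over all genes. The 4 exposed arrays lay above all 4 controls for 4 of the 15, where 1.64% of all genes had that order, and 7 of the 15 were higher at an unadjusted p under 0.05, where 2.63% of all genes were (1.63% were lower). The list was chosen with earlier results of these data known, so these shares are a description without a test. Mag, an adhesion protein of the inner myelin membrane, read 11.44, 11.52, 11.28 and 11.27 in exposed females, against 11.15, 11.17, 10.97 and 11.03 in control females (0.30, SE 0.09, adjusted p = 0.595). Cnp, an enzyme of myelin cytoplasm, read 11.98, 12.12, 11.92 and 11.87 in exposed females, against 11.79, 11.71, 11.77 and 11.73 in control females (0.22, SE 0.06, adjusted p = 0.586). For both, exposed replicate 2 was the highest array and replicate 4 the lowest of the exposed.

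Fa2h, which makes the hydroxylated fatty acids of myelin lipids, differed by 0.32 (SE 0.10), and Cldn11, the tight junction protein of myelin, by 0.20 (SE 0.06). Their groups did not overlap either, and their adjusted p-values were 0.837 and 0.955. Tspan2, Ugt8, which makes galactocerebroside, Opalin and Mog differed by 0.31, 0.28, 0.27 and 0.26. Mbp and Mobp, which code for abundant structural myelin proteins, differed by 0.10 and 0.14. Averaged over the 15 genes, the arrays read 11.20, 11.34, 11.15 and 11.01 in exposed females, against 10.93, 11.03, 10.98 and 10.99 in control females. The lowest exposed array was just below the highest control, so the averages overlapped by 1 array. Markers of thalamus and habenula, which lie next to the hippocampus, averaged 7.15, 7.31, 7.11 and 7.23 in exposed females, against 7.10, 7.13, 7.155 and 7.13 in control females, and 5 of the 6 were higher. Exposed replicate 2 was the highest array for both lists, while replicate 4, next for thalamus, was the lowest exposed array for myelin. The myelin median was 0.16 without exposed replicate 2, and the part of neighbouring tissue in the myelin values was not tested.

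The 10 measured genes of the oligodendrocyte lineage were all higher, with a median of 0.18, and again none was called. Nkx6-2, a transcription factor of maturing oligodendrocytes, read 8.34, 8.41, 8.18 and 7.97 in exposed females, against 7.88, 8.11, 7.58 and 7.67 in control females (0.41, SE 0.10, adjusted p = 0.368). Its groups overlapped between exposed replicate 4 and control replicate 2. The lineage transcription factors Sox10, Sox8 and Olig1 differed by 0.21, 0.20 and 0.19, and the precursor markers Pdgfra and Cspg4 by 0.09 and 0.06. The average of the 10 genes was 9.24, 9.24, 9.08 and 9.13 in exposed females, against 9.05, 9.03, 8.93 and 8.92 in control females, without overlap. Without the 3 arrays that went against their sex labels, 14 of 15 myelin genes were higher with a median of 0.17, and 10 of 10 lineage genes with a median of 0.19. In whole tissue, a change in the number of cells of a type and a change in RNA per cell cannot be told apart.

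The myelin average on single arrays was 10.86 to 11.17 in postnatal 750 ppm females, 11.08 to 11.37 in perinatal 250 ppm females and 10.95 to 11.35 in postnatal 250 ppm males. In direct comparison, the median myelin difference of postnatal 250 ppm females was 0.12 against the 750 ppm group and -0.03 against the perinatal group. Mag differed by 0.23 (SE 0.09) from the 750 ppm females and by -0.02 (SE 0.09) from the perinatal females, and neither difference passed the test.

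**Figure D4:**
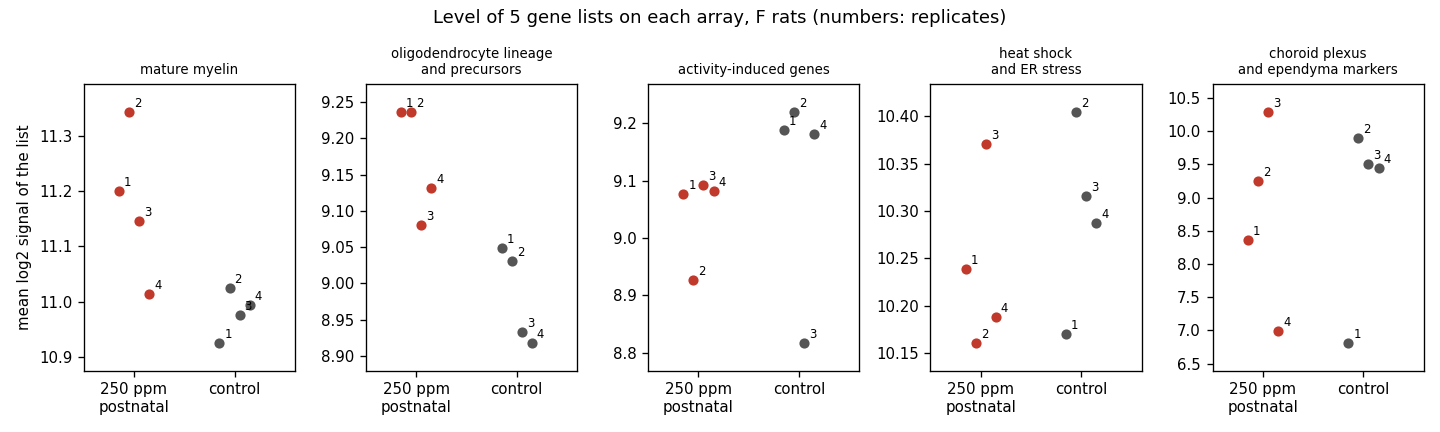
Mean log2 signal of 5 gene lists on each array (vertical axes) in postnatal 250 ppm females (red, left) and control females (grey, right), with replicate numbers beside the points. The oligodendrocyte lineage averages do not overlap, the myelin averages overlap by 1 array, and the choroid plexus averages spread over more than 3 units within each group.

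Promoters of Mag and Cnp are shown because both genes stood above control on every exposed array and their windows hold the same 3 texts, a choice made after the matches were seen. Of the other myelin genes with that order of arrays, Fa2h holds TGCGCNC alone and Cldn11 holds none of the 3 texts. Capitals mark matches on either strand to ACAAAG, a core bound by SOX factors, to CTGGCAC, which resembles the core bound by the myelin regulatory factor Myrf, and to TGCGCNC, the metal response core. The windows are 300 bases from RefSeq, build GRCr8: chr1:95290995-95291294, minus strand, for Mag, and chr10:86011254-86011553, plus strand, for Cnp.
Mag: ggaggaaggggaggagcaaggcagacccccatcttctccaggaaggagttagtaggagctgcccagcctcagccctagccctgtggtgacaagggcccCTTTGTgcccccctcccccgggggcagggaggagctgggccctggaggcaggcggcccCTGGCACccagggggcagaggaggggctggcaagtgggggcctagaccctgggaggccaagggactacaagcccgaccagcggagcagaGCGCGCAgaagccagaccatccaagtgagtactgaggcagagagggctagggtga
Cnp: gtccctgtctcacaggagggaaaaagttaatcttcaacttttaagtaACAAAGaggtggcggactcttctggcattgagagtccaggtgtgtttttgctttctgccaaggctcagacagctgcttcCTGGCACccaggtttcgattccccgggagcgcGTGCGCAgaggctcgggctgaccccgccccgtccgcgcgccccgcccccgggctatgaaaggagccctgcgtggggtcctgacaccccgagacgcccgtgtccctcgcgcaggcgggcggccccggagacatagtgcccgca
The matches start at bases 99, 157 and 246 in Mag and at bases 48, 127 and 159 in Cnp, and they do not overlap. Of 11 myelin genes with a promoter in the table, 4 (36.4%) hold CTGGCAC, beside 4.61% of all 27457 promoters, and 4 (36.4%) hold ACAAAG, beside 18.3%. TGCGCNC is in 3 (27.3%), beside 15%, and the E-box CACGTG in none, beside 6.65%. ACAATG, another SOX core, is in 2 (18.2%), beside 13.0%. The median GC content of the myelin windows was 65.0%, beside 52.3% over all, which differs too, and the shares are descriptions without a test.

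Genes with a known tie to lead showed small differences. Of 7 NMDA receptor subunit genes, 5 were higher and 2 lower, with a median of 0.03, and none was called. Grin1, the obligatory subunit, was 11.15, 11.07, 11.14 and 11.15 in exposed females, against 11.26, 11.11, 11.10 and 11.14 in control females (-0.03, SE 0.04). Grin2a and Grin2b, the main partners of Grin1 in the hippocampus, differed by 0.05 (SE 0.03) and 0.03 (SE 0.04). The groups of Grin1, Grin2a and Grin2b overlapped. Grin2c was 9.16, 9.16, 9.13 and 9.23 in exposed females, against 9.01, 9.06, 9.10 and 9.05 in control females, without overlap, and its difference of 0.12 (SE 0.06) had an adjusted p of 1.

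Among metallothioneins, Mt1 differed by 0.01 (SE 0.09), Mt2A by 0.11 (SE 0.07) and Mt3 by 0.05 (SE 0.07). The 14 genes of metallothioneins and zinc transport had a median of 0.03. The zinc importer Slc39a12, described above (-0.77, SE 0.18, adjusted p = 0.278), is not on that list. Heme genes were 7 higher and 4 lower with a median of 0.05. Alad, the lead-sensitive enzyme of heme synthesis, was 8.60, 8.63, 8.58 and 8.58 in exposed females, against 8.60, 8.77, 8.65 and 8.56 in control females (-0.05, SE 0.07). Uros, a later enzyme of heme synthesis, read 7.13, 7.31, 7.51 and 7.26 in exposed females, against 6.53, 7.05, 7.05 and 6.84 in control females. The groups did not overlap, and the difference of 0.43 (SE 0.15) had an adjusted p of 1. Of 18 genes of oxidative stress defence, 13 were higher and 5 lower with a median of 0.03, led by mitochondrial superoxide dismutase Sod2 (0.20, SE 0.06, adjusted p = 0.918) and glutathione reductase Gsr (0.16, SE 0.05, adjusted p = 0.955).

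Gene lists of neurons lay near the median of all genes. Pyramidal cell markers of CA1 and CA3 had a median of -0.00 (-0.0013) over 12 genes and dentate granule cell markers 0.04 over 6. AMPA and kainate receptor subunits had -0.02 over 11 and postsynaptic scaffold genes 0.00 (0.0037) over 16. GABA-A receptor subunits had -0.06 over 9, with 2 higher and 7 lower. No member of these lists was called. Of 17 genes of synaptic vesicle release, 13 were lower, by no more than 0.09, with a median of -0.02. Of 23 calcium signalling genes, 13 were higher and 10 lower, and Camkk2, an upstream kinase of calmodulin signalling, read 9.86, 9.88, 9.77 and 9.94 in exposed females, against 9.66, 9.56, 9.70 and 9.72 in control females. The groups of Camkk2 did not overlap, and the difference of 0.20 (SE 0.06) had an adjusted p of 0.728. Of 17 interneuron markers and neuropeptides, 12 were lower with a median of -0.04; Cck and Sst, which mark classes of interneurons, differed by -0.20 (SE 0.08) and -0.13 (SE 0.05).

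Genes induced by neuronal activity were lower for 15 of 22, with a median of -0.08 and none called. Egr2 read 6.79, 6.64, 6.91 and 6.95 in exposed females, against 7.21, 7.37, 6.70 and 7.35 in control females (-0.34, SE 0.16, adjusted p = 1), and Nr4a1 differed by -0.30. Npas4 was higher by 0.27, and Fos and Arc, common markers of active neurons, differed by 0.08 and -0.07. The list average was 9.08, 8.93, 9.09 and 9.08 in exposed females, against 9.19, 9.22, 8.82 and 9.18 in control females. Control replicate 3, an array that went against its sex label, was below all the others, with 8.97 for Nr4a1 and 10.08 for Arc, against 9.85 to 9.92 and 10.68 to 10.71 on the other controls. Without the 3 such arrays, 18 of 22 were lower, the median was -0.19 and Fos differed by -0.22.

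Heat shock and endoplasmic reticulum stress genes were lower for 17 of 19, with a median of -0.06 and none called. Hspa5, the main chaperone of the endoplasmic reticulum, differed by -0.16 (SE 0.08), Xbp1, a transcription factor of the unfolded protein response, by -0.15 (SE 0.06), and Calr, a calcium-binding chaperone, by -0.11 (SE 0.05). The list average was 10.24, 10.16, 10.37 and 10.19 in exposed females, against 10.17, 10.40, 10.32 and 10.29 in control females. The groups overlapped through control replicate 1, which was low, and exposed replicate 3, which was high. Of 14 clock genes, 8 were higher and 6 lower with a median of 0.01. Dbp, Bhlhe41, Per3 and Nr1d1, outputs or repressors of the clock, differed by 0.25, 0.18, 0.15 and 0.14, and Per1, Per2 and the activator Bmal1 by -0.17, -0.15 and -0.13. The time of day of dissection is not given in the labels.

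Several further lists had medians near 0 and held no called member. Neurogenesis and proliferation genes were 3 higher and 7 lower with a median of -0.03: Mcm2, a replication licensing protein of dividing cells, differed by 0.21 (SE 0.06, adjusted p = 0.837), and Sox11, a transcription factor of newborn neurons, by -0.14 (SE 0.07, adjusted p = 1). Of 9 genes of the amyloid and tau pathway, 5 were higher and 4 lower with a median of 0.02. Bace2, a protease related to the beta-secretase Bace1, read 7.18, 7.27, 7.72 and 7.86 in exposed females, against 7.87, 7.87, 7.86 and 7.87 in control females. The exposed arrays spread far more than the controls, and the difference of -0.36 (SE 0.16) had an adjusted p of 1. Psen2, a subunit of gamma-secretase, differed by 0.16 (SE 0.06, adjusted p = 1).

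Glucocorticoid and steroid response genes were 4 higher and 9 lower with a median of -0.06, and Pdk4, a brake on pyruvate use, differed by -0.28 (SE 0.19, adjusted p = 1). Iron and copper genes were 11 higher and 4 lower with a median of 0.05, and the transferrin receptor gene Tfrc differed by 0.19 (SE 0.08, adjusted p = 1). Metabotropic glutamate receptors had a median of 0.04 over 6 genes, and Grm3, which astrocytes also express, differed by 0.12 (SE 0.05, adjusted p = 1) without overlap of the groups. Medians were 0.03 over 9 DNA methylation genes, -0.03 over 11 genes of neurotrophins and their receptors, 0.02 over 11 of cholesterol synthesis and transport, 0.00 (0.0024) over 22 of oxidative phosphorylation and 0.00 (0.0014) over 15 liver genes. Without the 3 arrays that went against their sex labels the medians were -0.10 (-0.1049) for glucocorticoid response, -0.095 for neurogenesis, -0.03 for amyloid and tau, -0.02 for cholesterol and -0.05 for liver genes. Iron and copper genes were then 8 higher and 7 lower, with a median of 0.02.

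**Figure D5:**
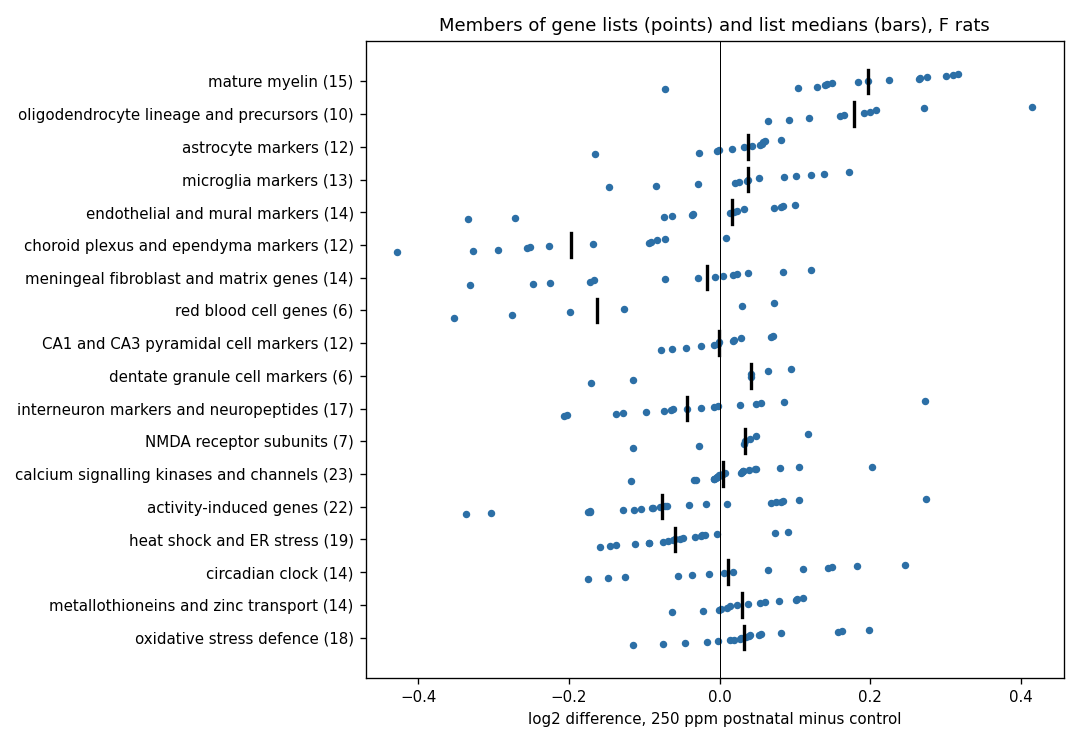
Log2 difference, postnatal 250 ppm females minus control females (horizontal axis), of each measured member (points) of 18 gene lists, with the number of members in brackets and the list median as a bar. Myelin and oligodendrocyte lineage members lie almost wholly above 0, and choroid plexus members almost wholly below 0.

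Markers of other tissues and cell types were examined as signs of dissection. Choroid plexus and ependyma markers were lower for 11 of 12, with a median of -0.20. Their average was 8.36, 9.24, 10.29 and 6.99 in exposed females, against 6.81, 9.89, 9.51 and 9.44 in control females, a range of over 3 units in each group. Ttr, the transthyretin gene that choroid plexus expresses at a very high level, was 12.45, 13.17, 13.55 and 8.68 in exposed females, against 8.61, 13.35, 13.28 and 13.29 in control females. The array low for Ttr was replicate 4 among the exposed and replicate 1 among the controls. The median of the list was -1.19 without the 3 arrays that went against their sex labels, 1 of which is control replicate 1. The part of choroid plexus in any difference above was not tested.

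Astrocyte markers were 8 higher and 4 lower with a median of 0.04, and endothelial and mural markers 8 and 6 with a median of 0.02. Red blood cell genes were 2 higher and 4 lower with a median of -0.16, and meningeal fibroblast genes 6 and 8 with a median of -0.02. Striatum markers had a median of -0.06 and thalamus and habenula markers of 0.03. Without the 3 arrays that went against their sex labels, endothelial and mural markers were 3 higher and 11 lower (median -0.06), red blood cell genes 0 and 6 (-0.16) and meningeal fibroblast genes 1 and 13 (-0.18). No member of these lists was called. Mx2, an interferon-induced antiviral protein, read 8.13, 8.19, 7.26 and 8.44 in exposed females, against 8.64, 8.70, 9.19 and 8.80 in control females. Its groups did not overlap, but replicates within a group lay up to over 1 unit apart, and the difference of -0.83 (SE 0.35) had an adjusted p of 1. The 14 interferon-induced genes were 5 higher and 9 lower with a median of -0.02 (-0.07 without those 3 arrays).

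Against the higher dose in the same window and sex, limma called 0 of 29214 probe sets (0%), and 1068 (3.66%) had an unadjusted p under 0.05. Probe set 10711454 was lower in postnatal 250 ppm females than in 750 ppm females by -0.58 (SE 0.11, adjusted p = 0.0926). Its arrays read 9.09, 9.01, 9.27 and 9.37 in the 250 ppm group, against 9.79, 9.85, 9.58 and 9.85 in the 750 ppm group. Rab7b differed by 0.50 (SE 0.10, adjusted p = 0.137), with 7.69, 7.50, 7.51 and 7.44 in the 750 ppm females. Ldaf1 differed by 0.02 (SE 0.13) and Pyroxd2 by 0.01 (SE 0.15) between the doses. Tnik was lower in the 250 ppm group by -0.45 (SE 0.09) and probe set 10814628 by -0.48 (SE 0.10), each with an adjusted p of 0.1665. The next higher genes by p were Tigar, a brake on glycolysis (0.35), and Rpgr, a ciliary protein (0.47). The next lower genes were Plagl1, an imprinted zinc finger gene (-0.69), and Zbtb16 (-0.38). Their adjusted p-values were 0.2535 to 0.3495.

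Against perinatal exposure at the same dose and sex, limma called 3 of 29214 probe sets (0.0103%), of which Slc29a4 was higher (0.00342%) and Tnik and probe set 10711454 were lower (0.00685%) in the postnatal group. At an unadjusted p under 0.05 there were 1748 (5.98%). Tnik read 9.76, 9.94, 9.65 and 9.83 in postnatal females, against 10.37, 10.32, 10.28 and 10.40 in perinatal females, and fell by 0.55 on the log2 scale (SE 0.09, adjusted p = 0.0235). Slc29a4, a plasma membrane transporter of serotonin and dopamine, read 8.62, 8.70, 8.75 and 8.73 in postnatal females, against 8.07 to 8.34 in perinatal females. The postnatal group was higher by 0.53 (SE 0.10, adjusted p = 0.0431). Control females averaged 8.40 for Slc29a4, and the postnatal difference from control was 0.31 (SE 0.10, adjusted p = 0.886). Probe set 10711454 fell by 0.62 on the log2 scale (SE 0.11, adjusted p = 0.0235). The groups did not overlap for any of the 3. The count was 0 without postnatal replicates 1 or 3 or perinatal replicate 2, 1 without postnatal replicate 4 or perinatal replicate 1, and 9 without perinatal replicates 3 or 4.

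Ldaf1 differed by 0.52 (SE 0.13, adjusted p = 0.194) between the windows and Popdc3 by -0.63 (SE 0.13, adjusted p = 0.0868). Probe set 10814628 differed by -0.52 (SE 0.10, adjusted p = 0.0618). Eefsec, a translation factor for selenoproteins, and Srp9, of the signal recognition particle, differed by 0.29 and 0.28 (adjusted p = 0.0708 and 0.0868), and Rbm7, an RNA-binding protein, by -0.29 (adjusted p = 0.0810). The choroid plexus list had a median of 1.17 here, with averages of 6.99 to 10.29 in postnatal females and 7.09 to 9.28 in perinatal females.

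The response to the low postnatal dose was set against that of males by an interaction term, which asks whether the difference from control is unequal in females and males. Limma called 0 of 29214 probe sets (0%), also without the 3 control arrays that went against their sex labels, and 671 (2.3%) had an unadjusted p under 0.05. The interaction was -0.04 (SE 0.18) for Ldaf1, 0.35 (SE 0.14) for Rab7b, -0.88 (SE 0.28) for Fcrl2, -0.14 (SE 0.13) for Tnik and 0.01 (SE 0.19) for Popdc3, each with an adjusted p of 1 (0.9999). For Fcrl2 the means were 6.05 in exposed and 7.18 in control females, and 7.12 in exposed and 7.37 in control males. Zfp36l2, which promotes decay of messenger RNAs, was the higher gene of smallest p, with an interaction of 0.33 (SE 0.08).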

How the data were processed

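The deposited table holds log2 signals for 29214 probe sets on 40 arrays. Per the submitters' processing notes the authors used RMA and Partek, without versions. RMA corrects background, equalises array distributions and summarises probes, so differences are relative to the array as a whole. No genome build is given in the sources used here. Values were used as deposited.

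Groups came from the labels alone. A limma 3.58.1 fit (R 4.3.3) with 10 group means over 40 arrays, moderated by empirical Bayes with a variance trend, gave 4 contrasts. The p-values are two-sided and adjusted by Benjamini-Hochberg over all probe sets, with calls at an adjusted p under 0.05. A gene is a probe set with 1 symbol (15310 probe sets; 323 have several and 13581 none), represented by that of highest mean, giving 14506 genes. Of 572 genes on 41 lists, 491 were measured. A list titled neighbours of Ldaf1 was dropped because one of its members lies on another chromosome. Which groups to compare, and which lists and genes to describe as members, was decided with earlier results of these data known. Named genes are all called probe sets, up to 12 a direction of smallest p whose groups do not overlap, up to 4 a list and 3 a direction for the other contrasts, with genes of lead toxicology. Tmem144 and others came by that rule, and probe set 10814628 and Ttr, with list members named beyond it, were chosen after their values were seen. Promoters are from RefSeq, and Fcrl2 is not among those shown. Alternatives were a filter on the dimmest 40% of probe sets, quantile normalization, smaller fits, array weights, no variance trend, other control sets and leaving out each array. Figures used matplotlib 3.10.9. The number of arrays limited the precision.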

Additional observations from a re-analysis of the deposited data

Results flagged for a closer look

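Single arrays stood apart from the other 3 of their group, by Dixon's criterion, in 14 of 216 groups of values tested, and chance alone gives about 5%. Among postnatal 250 ppm females these were Fcrl2 in replicate 1 (5.74, others 6.13 to 6.18), Mcm2 in replicate 1 (7.25, others 7.50 to 7.52), Tmem215 in replicate 2 (7.19, others 7.34 to 7.36), Per3 in replicate 3 (8.41, others 8.71 to 8.75), Calb1, a calcium-binding protein of granule cells, in replicate 3 (9.87, others 9.65 to 9.67), Mt1 in replicate 4 (10.57, others 10.30 to 10.33) and Cspg4 in replicate 4 (8.18, others 7.96 to 7.98). Among control females, replicate 1 stood apart for Ttr (8.61, others 13.28 to 13.35), Enpp2 (10.69, others 12.09 to 12.23), Prokr2 (8.87, others 8.65 to 8.69) and Srp9 (8.51, others 8.58 to 8.59). Replicate 3 stood apart for Nr4a1 (8.97, others 9.85 to 9.92), Arc (10.08, others 10.68 to 10.71) and Ugt8 (10.38, others 10.23 to 10.25). Control replicates 1 and 3 are the arrays that went against their sex labels, and the part of this in the values above was not tested.

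The 2 windows of 250 ppm exposure differed in females by the direct test for 3 probe sets, as postnatal minus perinatal: 10711454 by -0.62, Tnik by -0.55 and Slc29a4 by 0.53.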

How the results depend on the processing

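Against control females, the main count of 5 called probe sets was 10 with female arrays only, 18 with array weights and 13 with all 8 controls, and leaving out 1 array gave 2 to 5. The count was 2 without exposed replicates 2, 3 or 4 and 3 without control replicate 3. Against 750 ppm, 0 became 5 with female arrays only and 9 with array weights, and leaving out 1 array gave 0 to 1, the 1 without postnatal 250 ppm replicate 3. Against perinatal exposure, 3 became 9 with the dimmest 40% left out, 9 after quantile normalization, 6 with the compared groups or with female arrays only and 24 with array weights, and leaving out 1 array gave 0 to 9. The sex difference gave 0 under every setting tried. Named differences kept their direction in 1697 of 1726 values over 16 settings. Many of these values could not have reversed. The filter on dim probe sets, the smaller fits and the fit without a variance trend leave each difference unchanged. Genes whose groups do not overlap cannot reverse when 1 array is left out. The 29 reversed values belonged to 10 genes. Grin1 was 0.0049 with all 8 controls and -0.0454 to 0.0083 when 1 array was left out, positive without control replicate 1. Mt1 was -0.0814 without the 3 arrays against their sex labels, -0.0114 with all 8 controls and -0.0629 to 0.0654 when 1 array was left out, negative without control replicate 3 or exposed replicate 4. Ttr ran from -1.3427 to 0.9253, positive without control replicates 2, 3 or 4 or exposed replicate 4, and Eefsec from -0.0657 to 0.0212, positive without control replicate 2 or exposed replicates 1 or 2. Eif2s3 was -0.0108, Plin3 -0.0748 and Fos -0.2239 without the 3 arrays, and Fos was -0.0774, Plin2 0.0187 and Enpp2 0.0275 with all 8 controls. With 1 array left out, Fos ran from -0.1547 to 0.2081, negative without control replicate 3, Rab7a from -9e-04 to 0.0293, negative without control replicate 2, and Plin2 from -0.0787 to 0.0426, positive without control replicates 2 or 3 or exposed replicate 2. Enpp2 ran from -0.4434 to 0.2208 and was negative without control replicate 1 or exposed replicates 2 or 3. The causes were not tested. List medians ran from 0.16 to 0.24 for myelin and from 0.15 to 0.22 for the oligodendrocyte lineage over the settings tried. Over all lists and settings, 53 of 680 medians had the opposite sign to the main one. In 7 the median moved by over 1 SD of the list average. No paired analysis was possible because the replicate numbers were given in accession order and pair no samples.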
